A study of Homo sapiens with 4 samples.

Results

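Of the 20348 genes in the deposited table, 10 encode the enzymes and core subunits that write and erase DNA methylation and that write the Polycomb mark on histone H3. They were chosen by name and found by Ensembl identifier: the DNA methyltransferases DNMT1, DNMT3A and DNMT3B, the TET dioxygenases TET1, TET2 and TET3, and the Polycomb repressive complex 2 (PRC2) genes EZH1, EZH2, SUZ12 and EED. K562, a human line from chronic myeloid leukemia with erythroid features, and THP-1, a human line from acute monocytic leukemia, were cultured with DMSO, the solvent, or with 100 nM periplocin, a cardiac glycoside of the plant Periploca sepium, for 72 h. Polyadenylated RNA was sequenced from 4 bulk libraries, K562 DMSO, K562 periplocin, THP-1 DMSO and THP-1 periplocin, with 1 library in each group. The sample titles call the DMSO libraries blank controls, and the dose and time come from the methods of the study.

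With 1 library per group there was no spread between replicates and no test between conditions within a line. Intervals are 95% counting intervals and cover counting error only, so they say how well a library was counted, not how well a condition would repeat. They are exact, except that of a difference between lines, which is an approximation from its counting standard error. Library totals ran from 16381149 to 20622694 counts, and 3 counts, taken as the floor, correspond to between 0.152 and 0.177 CPM, the count scaled to the size of its library. Counts were scaled by the TMM method, in which each library is corrected for its composition, and the log2 ratio of periplocin to DMSO is given on that scale with 0.5 counts added to each value. A gene was called higher or lower when this ratio was at least 1 in size, that is 2-fold, among genes with a summed count of at least 20 in the pair, and all 10 genes passed that filter in both lines. The median log2 ratio of all genes tested was −0.01 in K562 and −0.03 in THP-1. Mitochondrially encoded genes took 5.6% of the counts in K562 DMSO and 2.1% in K562 periplocin. In THP-1 they took 5.2% with DMSO and 3.9% with periplocin, so the share was lower with periplocin in both lines.

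The erythroid markers GATA1, KLF1, TAL1, HBG1, HBG2 and HBZ summed to 1764 CPM in K562 DMSO and 3.54 CPM in THP-1 DMSO, and the monocytic markers SPI1, CD33, LYZ, ITGAM, CSF1R, MPO and CEBPA summed to 88.6 and 972 CPM. Each line therefore carried the markers of its label. MPO, a granule enzyme of immature myeloid cells, was low in the THP-1 pair, with 43 counts under DMSO and 14 under periplocin, and had 0 counts in both K562 libraries.

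DNA methylation is placed on cytosines next to guanines. DNMT3A and DNMT3B set new marks and DNMT1, brought to newly copied DNA by UHRF1, carries existing ones through replication, while the TET enzymes oxidise methylcytosine as a step toward its removal. In PRC2, either EZH2 or its paralogue EZH1 is the methyltransferase for lysine 27 of histone H3, and it acts only with SUZ12 and EED. EZH2 is characteristic of dividing cells and EZH1 of resting or maturing ones, a switch known from erythroid maturation, and DNMT3A, TET2 and EZH2 are recurrent targets of mutation in myeloid cancers.

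Coordinates are those of GENCODE release 29 on GRCh38. DNMT1 (ENSG00000130816) lies on chromosome 19 from 10133345 to 10231286 on the minus strand, DNMT3A (ENSG00000119772) on chromosome 2 from 25227855 to 25342590 on the minus strand, and DNMT3B (ENSG00000088305) on chromosome 20 from 32762385 to 32809356 on the plus strand. TET1 (ENSG00000138336) spans 68560656 to 68694482 of chromosome 10, TET2 (ENSG00000168769) 105145875 to 105279816 of chromosome 4, and TET3 (ENSG00000187605) 73986404 to 74108176 of chromosome 2, all on the plus strand. EZH1 (ENSG00000108799) spans 42700275 to 42745049 of chromosome 17 and EZH2 (ENSG00000106462) 148807383 to 148884321 of chromosome 7, both on the minus strand, while SUZ12 (ENSG00000178691) spans 31937018 to 32001045 of chromosome 17 and EED (ENSG00000074266) 86244544 to 86278813 of chromosome 11, both on the plus strand. The counts are given per gene and do not separate isoforms, and which exons and untranslated regions were counted is not stated in the sources used. DNMT1 shares 83 exonic bases with S1PR2 on the same strand, EED holds MIR6755 within 66 exonic bases, and TET1, EZH2 and SUZ12 each have a pseudogene of their name, so reads could have been divided there. TET2-AS1 overlaps TET2 on the other strand, and its exons share 0 bases with those of TET2.

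Promoter windows from RefSeq on GRCh38.p14, from 250 bases before to 50 bases after the start, were found for all 10 genes among 35116 windows. Those of EZH1 and EZH2, the catalytic paralogues whose balance moved most in K562, and of TET1, which had opposite ratios in the lines, are shown 5′ to 3′ on the strand of the gene. Capitals mark a match, on either strand, to the E2F letters TTTGGCGC, TTTCCCGC, TTTCGCGC or TTTGCCGC. The windows lie at chr17:42744991-42745290 on the minus strand for EZH1, chr7:148884242-148884541 on the minus strand for EZH2, and chr10:68560087-68560386 on the plus strand for TET1.
EZH1: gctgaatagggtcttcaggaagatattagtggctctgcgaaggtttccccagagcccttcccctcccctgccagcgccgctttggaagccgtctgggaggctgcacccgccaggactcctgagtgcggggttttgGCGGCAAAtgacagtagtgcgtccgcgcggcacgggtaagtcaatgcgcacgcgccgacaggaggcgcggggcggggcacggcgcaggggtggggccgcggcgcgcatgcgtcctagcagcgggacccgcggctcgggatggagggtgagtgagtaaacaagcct
EZH2: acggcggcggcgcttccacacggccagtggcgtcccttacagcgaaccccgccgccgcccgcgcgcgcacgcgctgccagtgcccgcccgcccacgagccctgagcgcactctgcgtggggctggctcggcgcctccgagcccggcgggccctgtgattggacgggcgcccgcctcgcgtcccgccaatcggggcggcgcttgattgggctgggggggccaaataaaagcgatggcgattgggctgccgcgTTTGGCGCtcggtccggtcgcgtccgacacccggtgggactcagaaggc
TET1: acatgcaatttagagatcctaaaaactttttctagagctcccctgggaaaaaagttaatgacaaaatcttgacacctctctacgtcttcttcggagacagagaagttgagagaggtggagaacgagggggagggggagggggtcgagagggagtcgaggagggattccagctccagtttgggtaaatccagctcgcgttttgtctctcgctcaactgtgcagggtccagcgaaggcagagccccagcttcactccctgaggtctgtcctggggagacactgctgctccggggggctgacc
The E2F letters were found in 4 of the 10 windows, those of DNMT1, EZH1, EZH2 and SUZ12, and in 3.31% of all windows. Each of the E2F strings itself holds a CpG dinucleotide. The windows of DNMT1, EZH1, EZH2 and SUZ12 held 30, 30, 46 and 40 CpG dinucleotides and that of TET1 held 10, against a median of 14 over all windows. The share with E2F letters was not compared among windows of like CpG content. CCAAT on either strand was found in 4 of the 10 windows (DNMT3B, EZH2, SUZ12 and EED) and in 34.6% of all, the GC box letters GGGCGG in 5 of the 10 (TET2, TET3, EZH1, EZH2 and SUZ12) and in 45.0% of all, and the GATA letters, after an A or T and before an A or G, in 1 of the 10 (EED) and in 25.0% of all. No matches of different motifs overlapped in these 10 windows. The genes have between 1 and 6 windows, of which the one nearest the annotated start was taken, and the windows of DNMT1 and DNMT3B fall inside the longer gene model of GENCODE. Those of TET1 and TET3 end before the GENCODE start, at 68560386 against 68560656 and at 73984959 against 73986404. The letters and CpG counts of these windows therefore do not describe the GENCODE start. A match of letters is a description and not a binding site.

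**Figure D1:**
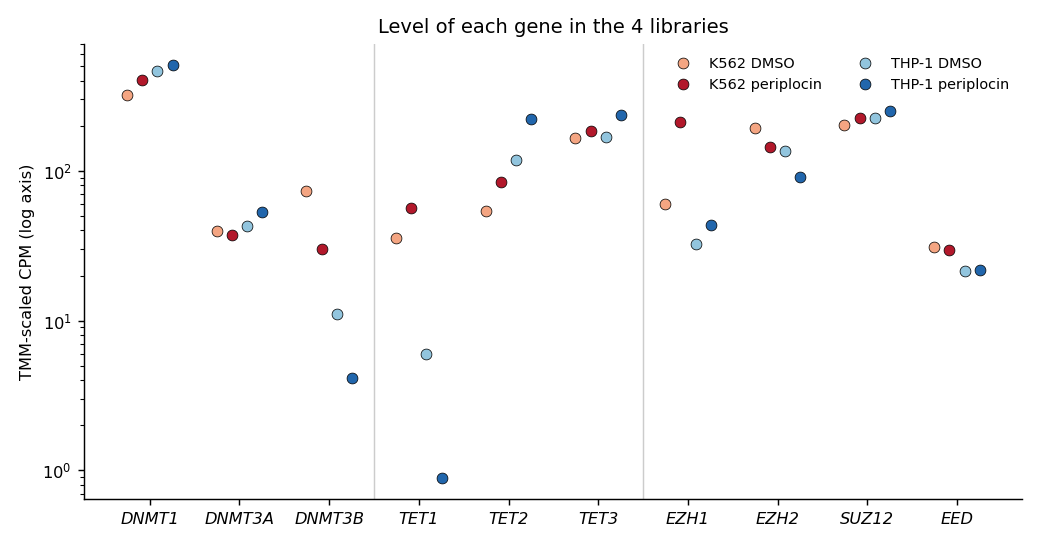
TMM-scaled CPM, on a log axis, of the 10 genes in the 4 libraries, with 1 point per library and grey lines between DNA methyltransferases, TET genes and PRC2 genes. DNMT3B and TET1 are low in THP-1, down to 4.14 and 0.887 CPM with periplocin, and EZH1 stands at 212 CPM in K562 periplocin against 60.4 CPM in K562 DMSO.

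DNMT3B, a de novo methyltransferase, was called lower in both lines. Of all genes tested, 12.1% were called lower in K562 and 11.3% in THP-1. The share of all genes called lower in both lines was not counted. In K562 it had 1250 counts with DMSO and 525 with periplocin, or 73.2 and 30.2 CPM. Far fewer were found in THP-1, with 218 and 70 counts, or 11.0 and 4.14 CPM. The periplocin library was the lower of the pair in each line. The log2 ratio was −1.28 in K562 (interval −1.43 to −1.13), 2.42-fold lower, and −1.41 in THP-1 (interval −1.82 to −1.02), 2.65-fold lower. Ratios as low or lower were found for 1016 of 12399 genes in K562 and 758 of 12989 in THP-1. The difference between the lines, THP-1 minus K562, was −0.13 with an interval from −0.55 to 0.28, which holds 0.

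The paralogue DNMT3A had 676 and 644 counts in K562 DMSO and periplocin and 849 and 893 in THP-1. Its log2 ratio of −0.10 in K562 had an interval that holds 0 (−0.25 to 0.06), and that of 0.30 in THP-1 did not (0.16 to 0.43), and neither was near 2-fold. Of the counts on both de novo enzymes, DNMT3B took 64.9% in K562 DMSO (exact interval 62.7% to 67.0%) and 44.9% in K562 periplocin (42.0% to 47.8%). In THP-1 it took 20.4% (18.1% to 23.0%) and 7.27% (5.71% to 9.10%). The share of DNMT3B was thus lower with periplocin in both lines by more than counting error, and divided by transcript length it was 80.2% and 64.1% in K562 against 36.0% and 14.7% in THP-1.

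DNMT1, the maintenance methyltransferase, was the most abundant of the family in every library. Its counts were 5474 and 7036 for K562 and 9136 and 8652 for THP-1, which is 321 and 405 CPM and 462 and 511 CPM. On the scaled values the periplocin library was slightly higher in both lines, with log2 ratios of 0.34 (0.28 to 0.39) and 0.15 (0.10 to 0.19), both under 2-fold. Summed over the 3 methyltransferases the level in K562 went from 434 to 472 CPM, and that in THP-1 from 516 to 568 CPM, so the sum followed DNMT1 and not DNMT3B.

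TET1 had log2 ratios of opposite sign in the lines. K562 had 610 counts with DMSO and 989 with periplocin, or 35.8 and 56.9 CPM, while THP-1 had 119 and 15, or 6.02 and 0.887 CPM. The ratio was 0.67 in K562 (0.52 to 0.82), 1.59-fold higher and not called, and −2.72 in THP-1 (−3.65 to −1.99), 6.60-fold lower and called. Of 12989 genes in THP-1, 122 had a ratio as low or lower. The THP-1 ratio rests on 15 counts in the treated library. The difference between the lines was −3.39 with a counting standard error of 0.40, and it was not tested against a spread between replicates.

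TET2, a frequent mutation target in myeloid neoplasms, was higher with periplocin in both lines without passing 2-fold in either. Its counts were 914 and 1469 for K562 and 2321 and 3761 for THP-1. The log2 ratios were 0.66 (0.54 to 0.78), 1.58-fold, and 0.92 (0.84 to 1.00), 1.89-fold, and 1289 of 12989 genes in THP-1 had a ratio as high or higher. TET3 had 2817 and 3184 counts in K562 and 3334 and 3998 in THP-1, with log2 ratios of 0.15 (0.08 to 0.22) and 0.49 (0.42 to 0.55). Of all TET counts, TET1 took 14.1% and 17.5% in the DMSO and periplocin libraries of K562 but 2.06% and 0.193% in those of THP-1. For TET2 the shares, in the same order, were 21.1%, 26.0%, 40.2% and 48.4%, and for TET3 they were 64.9%, 56.4%, 57.7% and 51.4%. TET3 thus had the most counts of the family in all 4 libraries, and TET2 a larger share with periplocin in each line. Which of them led in THP-1 periplocin turned with the length used: per kilobase of the longest coding transcript TET2 had 21.9 CPM and TET3 20.8, and per kilobase of all exons TET2 had 13.5 CPM and TET3 19.3. The summed TET level of K562 was 254 CPM with DMSO and 325 CPM with periplocin, and that of THP-1 was 292 and 459 CPM.

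EZH1 had the largest ratio of the 10 genes in K562 and EZH2 a lower level with periplocin in both lines. EZH1 had 1031 counts in K562 DMSO and 3687 in K562 periplocin, or 60.4 and 212 CPM, and 638 and 738 counts, or 32.3 and 43.6 CPM, in THP-1. Its log2 ratio in K562 was 1.81 (1.71 to 1.91), 3.51-fold higher and called, and 402 of 12399 genes had a ratio as high or higher. In THP-1 it was 0.43 (0.28 to 0.59), 1.35-fold and not called. The difference between the lines was −1.38 with a counting standard error of 0.09.

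EZH2 had 3317 and 2507 counts in K562 and 2660 and 1532 in THP-1, or 194 and 144 CPM and 135 and 90.6 CPM. The log2 ratios were −0.43 (−0.51 to −0.36) and −0.57 (−0.66 to −0.48), 1.35-fold and 1.49-fold lower, and neither was called. EZH1 took 23.7% of the counts on both paralogues in K562 DMSO (22.5% to 25.0%) and 59.5% in K562 periplocin (58.3% to 60.8%). In THP-1 the shares were 19.4% (18.0% to 20.7%) and 32.5% (30.6% to 34.5%). EZH1 thus had more counts than EZH2 only in K562 periplocin, and when the counts were divided by transcript length its share there was 45.6%, against 15.1% with DMSO, and the shares in THP-1 were 12.0% and 21.6%.

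The partners of the catalytic subunits moved little. SUZ12, the scaffold subunit, had 3475 and 3886 counts in K562 and 4477 and 4248 in THP-1, with log2 ratios of 0.13 (0.07 to 0.20) and 0.15 (0.09 to 0.21). EED, the subunit that reads the mark, had 526 and 514 counts in K562 and 423 and 371 in THP-1, with ratios of −0.06 (−0.24 to 0.12) and 0.03 (−0.17 to 0.24), and both intervals hold 0. The summed level of the 4 PRC2 genes was 489 and 610 CPM in the K562 pair and 415 and 407 CPM in the THP-1 pair.

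**Figure D2:**
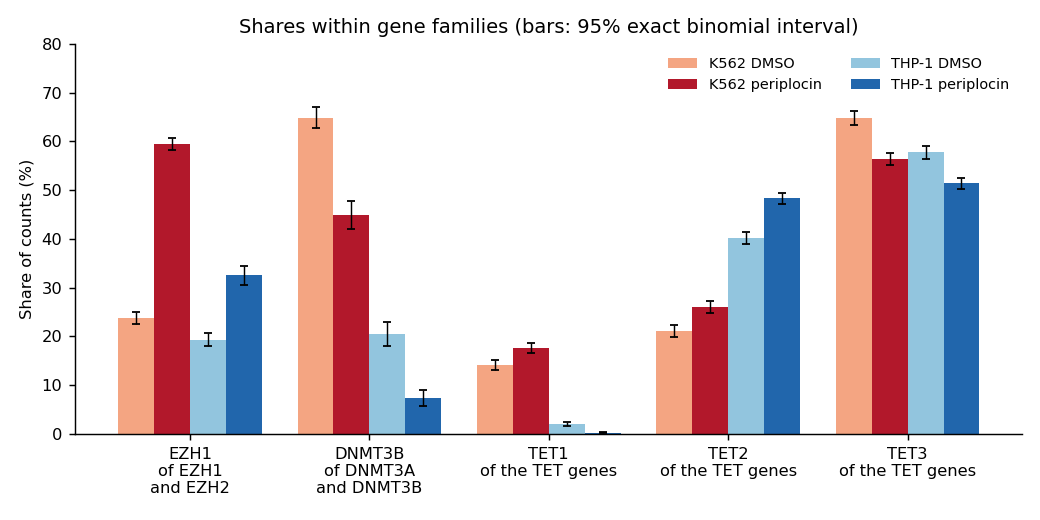
Share of counts, in percent, that EZH1 took of both EZH genes, DNMT3B of both DNMT3 genes, and each TET gene of all TET genes, as bars for the 4 libraries with 95% exact binomial intervals. The EZH1 share is 23.7% in K562 DMSO and 59.5% in K562 periplocin, and the DNMT3B share is lower with periplocin in both lines.

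Markers and cell cycle genes moved alongside these values. For comparison, 9.69% of all genes tested in K562 were called higher and 12.1% lower, and in THP-1 8.83% and 11.3%. In K562, 5 of the 6 erythroid markers were called higher and their sum went from 1764 to 7660 CPM, the 10 mitotic genes had a median log2 ratio of 0.83 with 4 called higher, all 10 above 0 and a sum of 1973 and then 3810 CPM, and the 14 S phase genes had a median of 0.08 with 2 called lower. In THP-1, the S phase genes had a median of −0.59, all 14 were below 0, 2 were called lower and their sum went from 3134 to 2095 CPM, while the mitotic genes had a median of 0.10 with 0 called. The monocytic markers summed to 972 and 949 CPM in THP-1, where their median ratio was −0.21, 5 of 7 were below 0, ITGAM was called higher at 1.12 and MPO lower at −1.36. In K562 they summed to 88.6 and 83.6 CPM, and of 5 tested, with a median of −0.95, ITGAM was called higher at 1.15 and CD33 and CEBPA lower at −1.53 and −1.67 (MPO, and ITGAM and CEBPA in K562, named after their values were seen). In THP-1 the erythroid markers summed to 3.54 and 1.77 CPM. The part of these shifts in the values of EZH1, EZH2, DNMT3B and TET1 was not tested. In bulk RNA, fewer cells of one state and less RNA per cell cannot be told apart.

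Set against the whole table, 1 of the 10 genes was called higher in K562 (EZH1), where 9.69% of 12399 genes were, and 1 was called lower (DNMT3B), where 12.1% were. In THP-1, 0 of the 10 were called higher, where 8.83% of 12989 genes were, and 2 were called lower (DNMT3B and TET1), where 11.3% were. The counts of called genes were thus near those of the table as a whole, and the median log2 ratio of the 10 was 0.14 in K562 and 0.15 in THP-1. In K562 the genes just inside and outside the 2-fold limit were DNMT3B at −1.28 and TET1 at 0.67, and in THP-1 they were DNMT3B at −1.41 and TET2 at 0.92. The ratios of the lines differed by at least 1 for 2 of the 10 genes (TET1 and EZH1) and for 22.5% of the 11337 genes tested in both, and 170 genes (1.5%) were called in opposite directions.

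**Figure D3:**
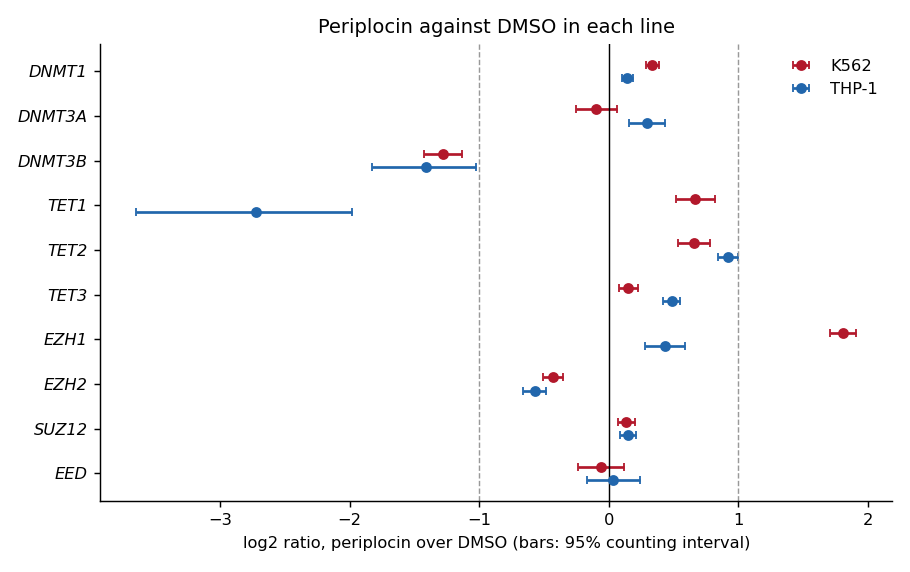
Log2 ratio of periplocin to DMSO for each of the 10 genes in K562 (red) and THP-1 (blue), with bars for the 95% counting interval and dashed lines at 2-fold. DNMT3B lies beyond the lower line in both lines, EZH1 beyond the upper line in K562 at 1.81, and TET1 beyond the lower line in THP-1 at −2.72.

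**Figure D4:**
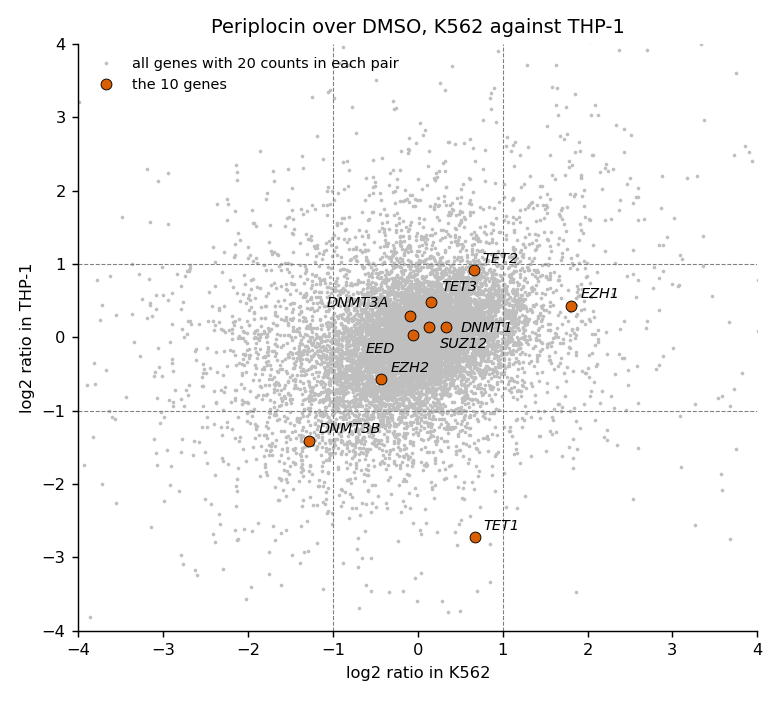
Log2 ratio of periplocin to DMSO in K562 (x axis) against THP-1 (y axis) for the 11337 genes with at least 20 counts in each pair (grey) and the 10 genes (orange), with dashed lines at 2-fold; 77 genes beyond 4 on either axis lie outside the plot. DNMT3B sits in the lower left, TET1 low in the lower right and EZH1 to the right.

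When both lines were fitted together by edgeR's quasi-likelihood test, with line and treatment as terms, the lines served as the only repeats and 1 residual degree of freedom was left. The share of genes with an adjusted p under 0.05 was 0% of 13584, while the unadjusted p was under 0.05 for 1500. The same model in DESeq2 called 131 genes, 0 of them among the 10, and had 1175 genes with an unadjusted p under 0.05. DNMT3B had a log2 change of −1.34 over both lines (edgeR adjusted p = 0.397, DESeq2 adjusted p = 0.160), TET2 one of 0.79 (edgeR adjusted p = 0.413, DESeq2 adjusted p = 0.296) and EZH1 one of 1.13 (edgeR adjusted p = 0.420, DESeq2 adjusted p = 0.298). Each of these genes had the same direction in 2 of 2 lines. The edgeR adjusted p of the other 7 genes lay between 0.531 for EZH2, with a log2 change of −0.50, and 0.991 for EED, and for TET1 the change was −0.81 with an adjusted p of 0.740.

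Without periplocin the lines differed most in DNMT3B and TET1. THP-1 DMSO was 6.63-fold lower than K562 DMSO in DNMT3B, at a log2 ratio of −2.73 (−2.95 to −2.52), and 5.91-fold lower in TET1, at −2.56 (−2.87 to −2.28). TET2 was 2.19-fold higher in THP-1, at 1.13 (1.02 to 1.25), and EZH1 was lower at −0.90 (−1.05 to −0.76). The called genes were therefore 1 higher and 2 lower of the 10, where 23.8% and 21.3% of 13441 genes were. EZH2 and EED were both lower in THP-1 at −0.53, DNMT1 was higher at 0.53, and SUZ12 was at 0.15, while the intervals of DNMT3A (0.12, −0.03 to 0.27) and TET3 (0.03, −0.04 to 0.10) hold 0. These values share their DMSO libraries with the ratios of periplocin to DMSO. Under scaling by total counts, which moved the median of all genes in this comparison from 0.04 to −0.09, EZH1 was at −1.02, past 2-fold, and TET3 and DNMT3A changed sign, to −0.09 and −0.0037.

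Levels of different genes were compared as CPM per kilobase of the longest coding transcript. In K562 DMSO the order was EZH2 (73.7), DNMT1 (61.6), SUZ12 (45.3), EED (18.2), DNMT3B (16.9), TET3 (14.5), EZH1 (13.1), TET2 (5.27), DNMT3A (4.17) and TET1 (3.85). In THP-1 DMSO it was DNMT1 (88.8), EZH2 (51.0), SUZ12 (50.5), TET3 (14.8), EED (12.6), TET2 (11.6), EZH1 (6.99), DNMT3A (4.52), DNMT3B (2.55) and TET1 (0.649). DNMT1, EZH2 and SUZ12 led in both lines under this length and under the length of all exons. TET1 was last in both lines here, but with the length of all exons TET2 (3.25) was last in K562 DMSO, below TET1 (3.85) and DNMT3A (3.30), and EED (4.39) stood 7th there. With 1 library per line, whether neighbours such as EZH2 and SUZ12 in THP-1 differ beyond replicate spread could not be judged, and with all exons SUZ12 (34.6) stood above EZH2 (29.8) there. In K562 periplocin, EZH1 (45.9) came close to SUZ12 (49.8) and EZH2 (54.7).

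The wider machinery was described by lists written from general knowledge, but with earlier results of these data known. Among 6 partners of the DNA methyltransferases, UHRF1, which recruits DNMT1, had 955 and 908 counts in K562 and 4060 and 2104 in THP-1, and CDCA7, which works with the remodeller HELLS, had 1974 and 2152 in K562 but 2302 and 587 in THP-1. CDCA7 was the 1 called gene of the list, at −1.75 in THP-1, where 11.3% of all genes tested were called lower, against 0.10 in K562. UHRF1, UHRF2 and HELLS were at −0.72, −0.63 and −0.67 in THP-1 and at −0.10, 0.55 and −0.71 in K562, and USP7 was at 0.18 and −0.21. DNMT3L, the catalytically inactive relative, had 0 counts in all 4 libraries, so 5 genes were tested, with a median of −0.67 in THP-1 and −0.10 in K562.

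Of 12 genes that partner or supply the TET enzymes or excise oxidised bases, 11 were tested in each line. Across all genes tested, 9.69% were called higher and 12.1% lower in K562, and 8.83% and 11.3% in THP-1. In K562, 0 were called higher and 3 lower, with a median of −0.32: NEIL2, a DNA glycosylase, at −1.96, IDH2, which makes the TET cofactor 2-oxoglutarate, at −1.71, and D2HGDH, which clears 2-hydroxyglutarate, at −1.35. D2HGDH was also lower in THP-1, at −2.21 with 479 and 88 counts, and NEIL2 at −1.08 from 45 and 18 counts, named here after its values were seen, and the median there was 0.11. Among 8 readers of methylated CpG, MBD1 was called higher in K562 at 1.11 (891 and 1961 counts) and 0 in THP-1, with medians of 0.45 and 0.15. The 5 methyl donor enzymes had 0 calls, with medians of 0.11 and 0.02. MAT2A, which makes S-adenosylmethionine, was at −0.03 and −0.39, MAT2B at 0.18 and 0.02, AHCY, which clears the by-product, at −0.26 and −0.74, AHCYL1 at 0.20 and 0.15, and AHCYL2 at 0.11 and 0.54.

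Of 11 accessory subunits of PRC2, 10 were tested, since EZHIP had 0 counts. Lower calls made up 12.1% of all genes tested in K562 and 11.3% in THP-1, and higher calls 9.69% and 8.83%. EPOP, an adaptor of PRC2, was the 1 gene called lower in each line, at −1.17 in K562 (100 and 45 counts, named after its values were seen) and −1.01 in THP-1 (229 and 97 counts), and the list medians were 0.35 and −0.18. For PRC1, the other main Polycomb complex, 24 genes were tested. SCML2 was called higher in K562 at 1.71 (429 and 1434 counts) and CBX2, a subunit that reads the PRC2 mark, lower in THP-1 at −1.28 (506 and 178 counts), with medians of 0.08 and 0.17.

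Of 6 genes of enzymes that remove the Polycomb marks, 5 were tested between the DMSO libraries, and both demethylases, KDM6A and KDM6B, were called lower in THP-1, where 21.3% of all genes were. KDM6A, a demethylase of the PRC2 mark, had 1370 and 2102 counts in K562 but 5 and 3 in THP-1, with THP-1 DMSO at a log2 ratio of −8.17 to K562 DMSO (interval −9.93 to −7.08). Its paralogue KDM6B had 1606 and 1375 counts in K562 and 279 and 775 in THP-1, with THP-1 DMSO at a log2 ratio of −2.73 to K562 DMSO. Its ratio of periplocin to DMSO was −0.25 in K562 and 1.70 in THP-1, called higher there, where 8.83% of all genes tested were. The H2A deubiquitinase BAP1 was at 0.02 in K562 and −0.20 in THP-1, its partner ASXL1 at 0.08 and −0.29 and ASXL2 at 0.37 and 0.24, and ASXL3 had at most 1 count in any library. Medians of the tested genes were 0.08 in K562 and 0.02 in THP-1.

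**Figure D5:**
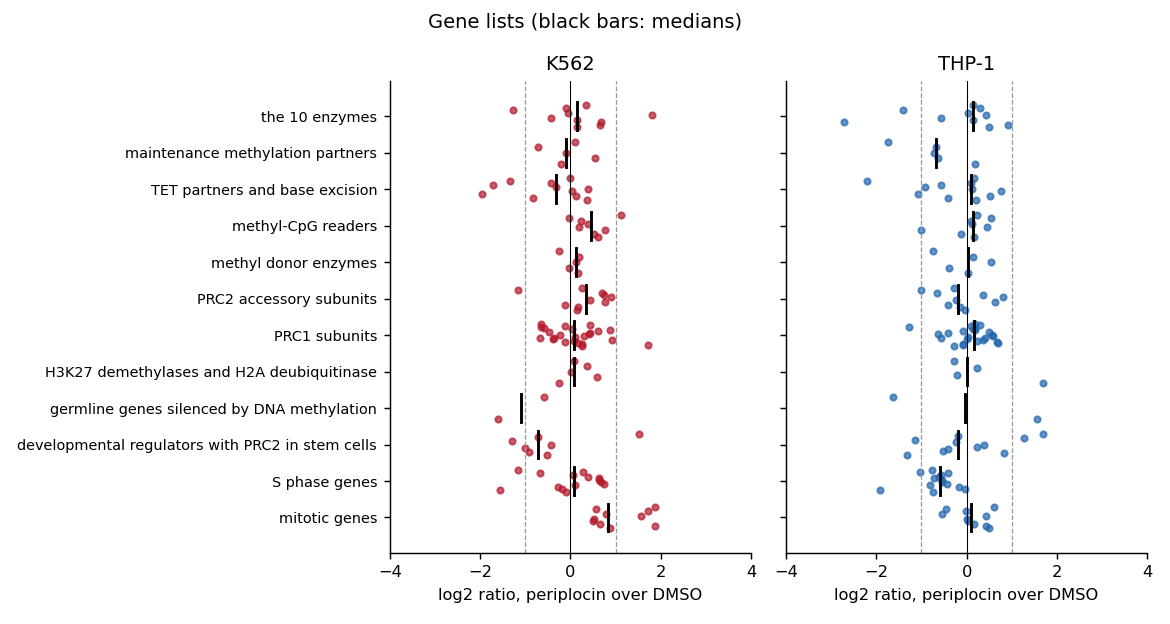
Log2 ratio of periplocin to DMSO in K562 (left) and THP-1 (right) for every tested gene of each list, with black bars at list medians and dashed lines at 2-fold. The S phase genes all lie below 0 in THP-1 with a median of −0.59, and the mitotic genes all lie above 0 in K562 with a median of 0.83.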

How the data were processed

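The authors prepared poly-A libraries from 4 samples, a single biological replicate per condition, and deposited 1 table of expected counts per gene, estimated and neither normalized nor pooled. The submitters' processing notes list HISAT2, StringTie 1.3.1 and hg38. The annotation, counting settings and strandedness are not given in the sources used here. Labels name an Illumina NovaSeq and the methods another platform. All 40 values of the 10 genes are whole numbers, 0 columns were left unused, and the other values were rounded. An estimated count divides ambiguous reads, so the true error of a value is at least its counting error.

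Scaling used TMM factors (0.955 to 1.05) from edgeR 4.0.16 in R 4.3.3. Ratios within a line took an exact binomial counting interval and no test. The fit over both lines used edgeR's quasi-likelihood test on genes that reached 10 counts in 2 or more libraries, with adjustment by Benjamini-Hochberg at 0.05, and DESeq2 1.42.0 as an alternative, which gave no adjusted p for 2371 genes. The ratio step and the edgeR fit were run on simulated data with less spread than the fit estimated for these data. Only the ratio step had to meet a set limit, so the runs do not show how well the fit performs here. Coordinates and lengths came from GENCODE 29, in which 20118 of 20348 identifiers were found, and promoter windows from RefSeq. Of list genes beyond the 10, those named are up to 3 per list and line with the largest ratio among called genes of at least 5 mean CPM, and lists of at most 6 genes whole. The members and the 13 other lists, the markers included, were chosen with earlier results of these data known. One gene of the fixed marker lists is not reported here and was left out of the list's sums.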

Additional observations from a re-analysis of the deposited data

Results flagged for a closer look

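TET1 had log2 ratios of periplocin to DMSO of opposite sign in the lines, 0.67 in K562 and −2.72 in THP-1, so that the ratio in THP-1 minus that in K562 was −3.39. The counts behind it were 610 and 989 for K562 against 119 and 15 for THP-1. The difference was not tested, because 1 library per condition leaves no spread between replicates. Of the 11337 genes tested in both lines, 22.5% had ratios that differed by at least 1. TET1 was flagged because its signs were opposite and both counting intervals lay away from 0. How many of all genes share that pattern was not counted. It was not particular to TET1: UHRF2 was at 0.55 in K562 and −0.63 in THP-1, and CDC45 at 0.29 and −1.04, with intervals away from 0.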

How the results depend on the processing

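The number of genes called at 2-fold was 2702 for K562 and 2611 for THP-1. It was 5135 and 4607 with no filter on counts, 1637 and 1512 with a mean of at least 5 CPM, and 1570 and 1454 where the whole counting interval lay beyond 2-fold. In the fit over both lines, 0 genes were called by edgeR, 131 by DESeq2, 1 under total-count scaling, 1 with no filter, and 0 with no replicate block (cell line left out). EED, at −0.01, was at 0.011 with DESeq2, and TET1, at −0.81, was at 0.47 without the line term. The cause was not tested in either case. Under a mean of at least 5 CPM the genes called among the 10 in THP-1 went from 2 to 1, since TET1 has too low a mean. The ratio of EZH1 in K562 lay between 1.80 and 1.82, DNMT3B between −1.29 and −1.27 for K562 and −1.41 and −1.37 for THP-1, and TET1 in THP-1 between −2.73 and −2.61, over all scalings and prior counts. The adjusted p of DNMT3B over both lines ranged from 0.160 to 1. The line term pairs periplocin with DMSO within each line, the labels carry no replicate numbers for a further pairing, and leaving out any library leaves 0 residual degrees of freedom in a design of 4 libraries with line and treatment as terms. Depth limits the low genes: TET1 and DNMT3B in THP-1 rest on 15 and 70 counts with periplocin.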

Other observations

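Of 18 germline genes that DNA methylation keeps silent in body cells, 12 had at most 3 counts in all 4 libraries. In each line 2 were tested. Among all genes tested, 12.1% were called lower in K562, and in THP-1 11.3% were called lower and 8.83% higher. STK31 was called lower in K562 (88 and 29 counts, log2 ratio −1.61), and in THP-1 MAEL was called lower (23 and 6 counts, −1.63) and PIWIL2 higher (10 and 26 counts, 1.56), while SOHLH2 had 178 and 121 counts in K562. These genes were named after their values were seen, and the list medians were −1.10 in K562 and −0.04 in THP-1.

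Of 30 developmental regulators known as PRC2 targets in stem cells, 13 had at most 3 counts in all 4 libraries. Over the whole table, 9.69% of genes tested were called higher and 12.1% lower in K562, and 8.83% and 11.3% in THP-1. In K562, 7 were tested with a median of −0.72: CDKN1C, an inhibitor of cyclin-dependent kinases, was called higher (165 and 483 counts, 1.52), and FOXA2 (175 and 72 counts, −1.30) and PAX6 (726 and 366 counts, −1.01) were called lower. In THP-1, 11 were tested with a median of −0.18: IRX3 (2765 and 1077 counts, −1.14) and WT1 (320 and 109 counts, −1.33) were called lower, and CDKN1C (13 and 37 counts, 1.70) and GATA6 (25 and 52 counts, 1.27) higher, these last named after their values were seen. CDKN1C was thus called higher in both lines, on few counts in THP-1.

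RRM2, a subunit of ribonucleotide reductase, was called lower in both lines, with 4505 and 1563 counts in K562 (−1.55) and 2765 and 623 in THP-1 (−1.93). CCNE2 was called lower in K562 at −1.15 and CDC45 in THP-1 at −1.04. The mitotic kinases AURKA, PLK1 and BUB1 were called higher in K562 at 1.88, 1.87 and 1.71 and were at 0.62, 0.44 and −0.02 in THP-1.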
